A study of Mus musculus with 15 samples.

Results

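The comparison described here set microvessels from the tumour-bearing brain region of untreated mice against microvessels from the brains of sham-operated mice. Its members were all genes with a deposited score of at least 10 in at least 3 of the 15 libraries of the series, which kept 19668 of 27174 genes, each compared between 3 untreated tumour and 3 sham libraries. All mice were adult wild-type BL6/57 animals, as the labels spell the strain. The tumour mice carried glioblastoma cells transplanted into the brain, and microvessels were collected 21 days after transplantation. They received control IgG and no anti-angiogenic or anti-PD-1 agent, and the sham mice had an operation without tumour cells, so that tumour and IgG cannot be told apart. No time between operation and collection is given for the sham mice, so a difference in time cannot be told apart from tumour either. Another group, used for side-by-side values only, held microvessels from the hemisphere opposite the tumour of the IgG-treated mice. Each library was a pool of 3 mice, so the spread between libraries is a spread between pools. Which glioblastoma line was transplanted is not stated in the labels or headers.

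Brain capillaries are lined by endothelial cells whose tight junctions, low vesicle traffic and dedicated transporters form the blood-brain barrier. Pericytes wrap these capillaries inside a shared basement membrane, astrocyte endfeet contact them from outside, and Wnt/beta-catenin signalling in the endothelium keeps the barrier programme on. Glioblastoma is known for vessels that are dilated, irregular and leaky, for VEGF and angiopoietin-2 as its main angiogenic ligands, and for infiltration by macrophages and lymphocytes. A microvessel preparation retains attached cells and fragments, so the libraries hold RNA of several cell types. In such bulk samples fewer cells of a type and less RNA per cell cannot be told apart.

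The 6 libraries compared summed to scores between 11845913 and 15799111, and the estimated number of reads behind them ran from 6365348 in sham replicate 2 to 18035515 in untreated tumour replicate 2. On the log2 scale the sham libraries correlated with each other at 0.972 to 0.975 across genes, the untreated tumour libraries at 0.942 to 0.965, and libraries of different groups at 0.834 to 0.871. The untreated tumour libraries stood apart in their mitochondrial ribosomal RNA. It made up 22.364%, 33.188% and 21.469% of their scores, against 11.912% to 12.388% in sham. The uncharacterised gene Gm26917 took 4.165% to 5.642% of the untreated tumour scores and 0.484% to 0.657% of the sham scores. Untreated tumour replicate 2 had the highest mitochondrial share, and untreated tumour replicate 1 had the lowest summed scores of endothelial, arterial and smooth muscle markers. List counts and medians printed below that moved by over 1.5 times without either library are given with both values. The part of these differences in the results was not tested.

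Of the 19668 genes, 4577 rose and 4590 fell in untreated tumour microvessels (limma, Benjamini-Hochberg adjusted p below 0.05). Each direction amounted to 23.3% of all genes tested, and these 2 shares are the background for the counts of list members given below. A log2 fold change above 3 was reached by 760 risen genes, while 214 fell by more than 3. Above 5 there were 170 risen genes and no fallen gene. All 3 untreated tumour libraries lay above all 3 sham libraries for 5433 genes (27.6%) and below them for 5233 genes (26.6%). The median log2 fold change of all genes was 0.03. Scaling moved the balance: when libraries were centred on 18 endothelial identity genes, 4958 genes rose and 3288 fell and the median of all genes moved to 0.17. With equal sums after leaving out the mitochondrial genome and Gm26917, 6098 rose and 3437 fell and the median was 0.22. Where these 2 scalings or quantile normalisation turned the balance of a gene group, or moved its risen or fallen count by over 1.5 times, those counts are given beside the ones printed.

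**Figure D1:**
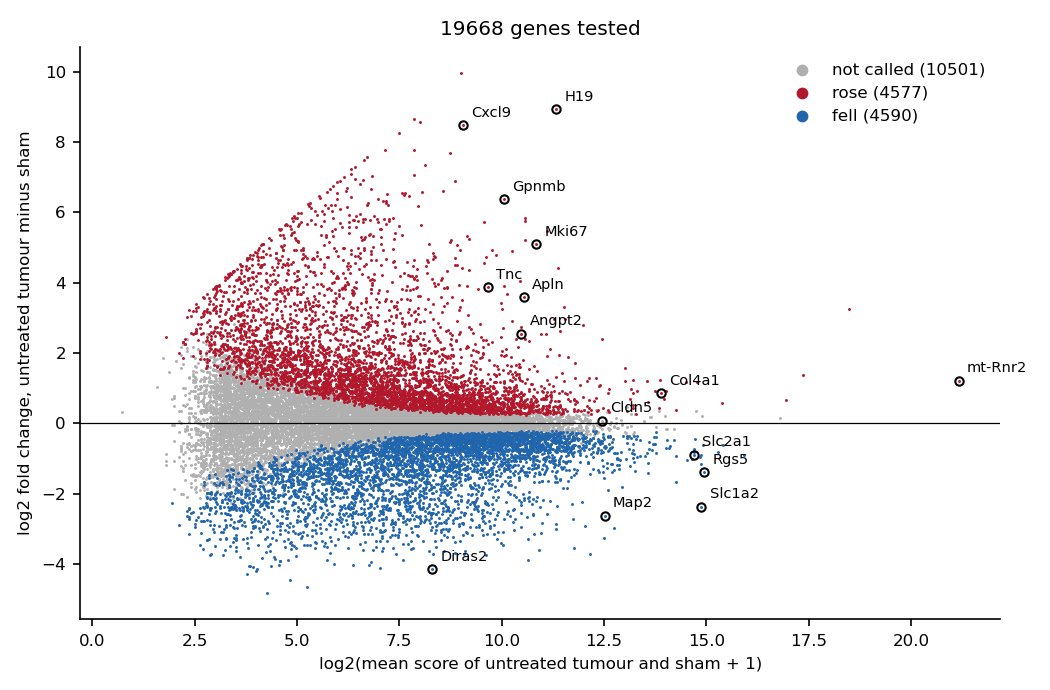
Log2 fold change between untreated tumour and sham microvessels (vertical axis) against the log2 mean score of both groups (horizontal axis) for the 19668 genes tested. Each point is a gene, coloured by its call: 4577 rose, 4590 fell and the rest were not called. Circles mark named genes: H19 and Cxcl9 lie near the top, Diras2, Map2 and Slc1a2 lie below 0, and Cldn5 lies at 0.07.

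By gene class, 3408 of 14861 protein-coding genes rose (22.9%) and 4117 fell (27.7%), but the balance turned with endothelial centring (3728 and 2950) and with equal sums (4710 and 3060). Small nucleolar RNAs, which guide the modification of ribosomal RNA, rose in 83 of 133 cases (62.4%, and 47.4% with quantile normalisation), 3 fell, and the median log2 fold change was 2.0. Rpph1, the RNA subunit of RNase P, had scores of 5326, 7367 and 4372 in sham and 15781, 14812 and 9471 in untreated tumour. Its groups did not overlap, which was a condition of naming it (log2 fold change 1.23, SE 0.25, limma adjusted p = 0.000612). Small RNA genes can lie inside host genes, and no label or header states whether strand entered the counting.

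The largest rises were ranked among called genes without overlap and with a mean score of at least 200 in the higher group. They were led by transcripts that sham vessels barely contained. Pet2 (ENSMUSG00000035395, chromosome X, 89403848 to 89409689 on the minus strand, on GRCm38 like all positions below), an X-linked gene expressed in plasmacytoma, was listed at 0 in all sham libraries and at 1447, 842 and 801 in the untreated tumour libraries. The imprinted fetal transcript H19 (ENSMUSG00000000031, chromosome 7, 142575558 to 142578120 on the minus strand) had scores of 16, 7 and 6 in sham and 6530, 5892 and 2938 in untreated tumour. The lowest untreated tumour library exceeded the highest sham library by a wide margin, and the log2 fold change was 8.94 (SE 0.57, limma adjusted p = 2.37e-09). Iqgap3, a scaffold protein of dividing cells, rose by 7.78 on the log2 scale, and Hmmr, a mitotic spindle and hyaluronan-binding protein, by 6.6. Strc, which encodes the inner ear protein stereocilin, stood at 4, 9 and 7 in sham and 1285, 569 and 892 in untreated tumour. The nuclear export factor Nxf3 was listed at 0 in every sham library and reached 607, 149 and 318 in the tumour. Tnfsf8, the CD30 ligand of activated lymphocytes, rose by 7.33. It read 6, 2 and 1 in sham and 61, 123 and 26 in the opposite hemisphere. That difference was also called (log2 fold change 4.09, limma adjusted p = 0.000362). In the opposite hemisphere Pet2 read 10, 6 and 2 and H19 157, 50 and 12.

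Under the same conditions, most of the largest falls were in genes known from neurons. Diras2, a small GTPase of neurons, had scores of 473, 555 and 770 in sham and 28, 28 and 42 in untreated tumour. All sham libraries were above 400 and all untreated tumour libraries below 50 (log2 fold change -4.15, SE 0.25, limma adjusted p = 1.47e-09). Bsn, the presynaptic scaffold bassoon, fell by 3.9 on the log2 scale, and Eef1a2, the elongation factor of neurons and muscle, by 3.74. Slc24a2, a potassium-dependent sodium-calcium exchanger of neurons, fell by 3.61 and Gabrb2, a GABA-A receptor subunit, fell by 3.72. Under the rule of size, the genes that fell furthest also held Mapk8ip2, Tmem178b, Gpr26, St8sia3 and Acvr1c, with log2 fold changes from -3.88 to -3.63.

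Ranked by the change in score itself among called genes without overlap, the largest gains beside the mitochondrial ribosomal RNAs included Rnf213, Igfbp3 and B2m. Rnf213, the interferon-inducible E3 ligase known from moyamoya disease, had scores of 4256, 4120 and 4116 in sham and 13484, 10011 and 13869 in untreated tumour. Igfbp3, an insulin-like growth factor binding protein, read 1903, 1933 and 1395 in sham and 11223, 6285 and 10560 in untreated tumour and the opposite hemisphere 5320, 2715 and 4626. Igfbp3 rose by 2.39 (SE 0.22, limma adjusted p = 1.08e-07). Among the largest losses were Slc1a2, Spock2, Sparcl1, Sptbn1 and Epas1. Sparcl1, a matricellular protein of vessels and astrocytes, read 37993, 39115 and 40243 in sham and 18354, 21257 and 20201 in untreated tumour. Epas1, the hypoxia-inducible factor HIF-2alpha that is high in endothelium and pericytes, read 40285, 38244 and 36597 in sham and 14740, 25391 and 22827 in untreated tumour. The untreated tumour libraries were lowest for both (-0.97 and -0.91 on the log2 scale).

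**Figure D2:**
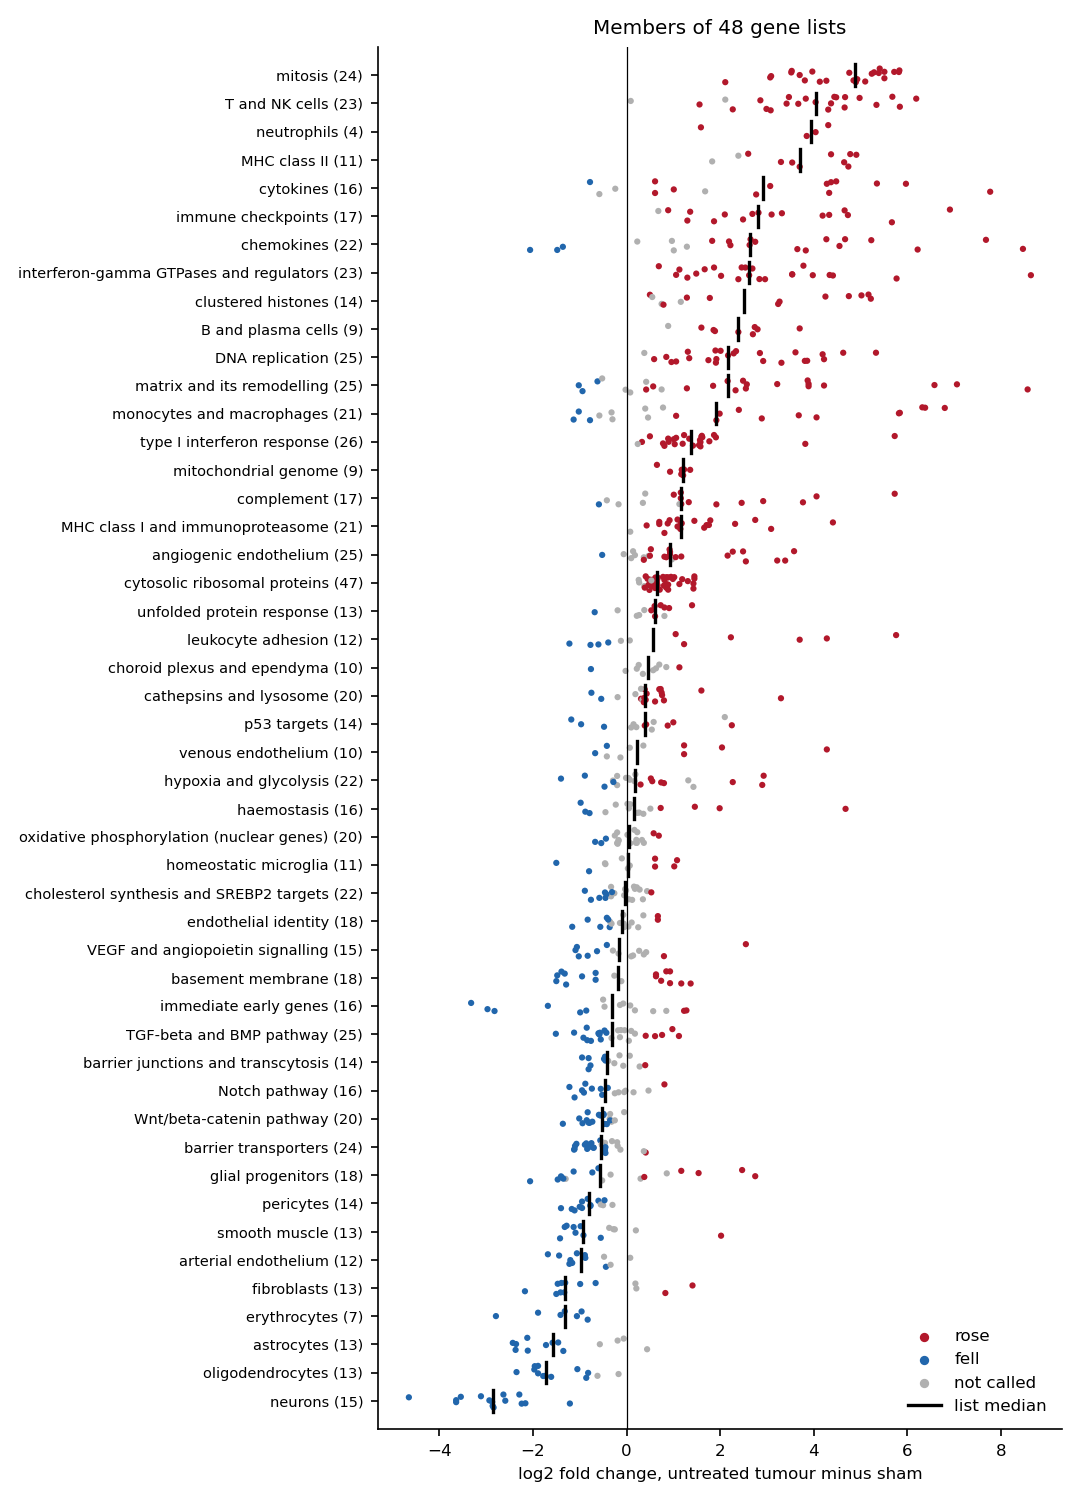
Log2 fold change between untreated tumour and sham microvessels (horizontal axis) of the members of 48 gene lists (rows, with the number of members tested in parentheses, ordered by median). Points are genes, coloured by call, and black bars are list medians: mitosis lies highest at 4.88 and neurons lowest at -2.86.

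Endothelial identity genes gave calls in both directions. Beside the 23.3% of all genes called in each direction, the counts below are not read as a result about endothelial identity. Of 18 identity genes, 2 rose, 6 fell and 10 were not called, with a median log2 fold change of -0.10, which became 0.04 when libraries were centred on these genes, 0.08 with quantile normalisation and 0.09 with equal sums. The balance of calls turned with it: 5 rose and 2 fell with quantile normalisation or equal sums. With endothelial centring 4 rose and 3 fell. That setting gives these same genes an equal mean level in every library, so it cannot show whether the list moved. Without untreated tumour replicate 2 the median was -0.28. Their summed score ran from 100750 to 108071 in sham and read 67963, 95202 and 89589 in untreated tumour. Cdh5, the adherens junction protein VE-cadherin, had scores of 7000, 7317 and 6805 in sham and 6541, 7387 and 6295 in untreated tumour. The groups overlapped, and the log2 fold change was -0.07 (limma adjusted p = 0.747), with the sign turned under the other scalings (0.08 to 0.25). Ptprb, the phosphatase VE-PTP that restrains TEK and VE-cadherin signalling, read 51804, 51221 and 49087 in sham and 21174, 32980 and 33400 in untreated tumour. It fell by 0.83 (limma adjusted p = 0.000583), a call lost with quantile normalisation, where the change was -0.29. Sox17, a transcription factor of arterial and barrier endothelium, fell by 1.16. Egfl7, a secreted protein of growing vessels, rose by 0.67, and Clec14a, an endothelial lectin, by 0.67. Clec14a read 1672, 2008 and 1811 in sham and 2794, 2885 and 3046 in untreated tumour and 3318, 2658 and 2950 in the opposite hemisphere. The count of 6 fallen identity genes was 3 without sham replicate 1 or without untreated tumour replicate 1. Pecam1 was among them: it fell by 0.36, and its call was lost in 4 of the 6 fits that left out a library and under the other scalings.

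The junction and transcytosis genes of the barrier were lower as a group: 7 of 14 fell and 1 rose, with a median of -0.42 (5 fell under each of the 3 other scalings, and 2 rose with quantile normalisation). Ocln, the tight junction protein occludin, had scores of 6209, 6628 and 6566 in sham and 3047, 5084 and 3553 in untreated tumour. Its untreated tumour values all lay below sham (log2 fold change -0.77, SE 0.16, limma adjusted p = 0.000526). Jam2, a junctional adhesion molecule, fell by 0.81, and Tjp1, the scaffold ZO-1, by 0.48. Cav1, the coat protein of caveolae, also fell, by 0.81. Mfsd2a, the lysolipid transporter that suppresses transcytosis, read 899, 910 and 865 in sham and 453, 627 and 342 in untreated tumour and fell by 0.95. Claudin-5, encoded by Cldn5, stood at 4989, 5329 and 5839 in sham and 5085, 6915 and 5112 in untreated tumour. These ranges overlapped (0.07, SE 0.15), and the sign was negative without untreated tumour replicate 2 (-0.08), whereas quantile normalisation gave a called rise of 0.39. Plvap, the diaphragm protein of fenestrated capillaries, read 442, 599 and 377 in sham and 323, 270 and 504 in untreated tumour and was not called (limma adjusted p = 0.283). The 1 gene that rose, F11r, lost its call when sham replicate 2 or 3 or untreated tumour replicate 2 was left out, which left no risen member.

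Most barrier transporters fell. Of 24, 16 fell, 1 rose and 7 were not called, with a median of -0.54, and 12 to 13 fell and 2 rose under the other scalings. Slc2a1 (ENSMUSG00000028645, chromosome 4, 119108711 to 119137983 on the plus strand), the glucose transporter GLUT1, had scores of 38709, 35613 and 28324 in sham and 15054, 23590 and 17171 in untreated tumour. Every untreated tumour library lay below every sham library (log2 fold change -0.89, SE 0.18, limma adjusted p = 0.000403), while the opposite hemisphere read 36890, 38136 and 33574. Abcb1a (ENSMUSG00000040584, chromosome 5, 8660077 to 8748575 on the plus strand), the drug efflux pump P-glycoprotein, read 17561, 18186 and 18175 in sham and 8441, 11915 and 9709 in untreated tumour. It fell by 0.86 (SE 0.14, limma adjusted p = 8.75e-05). Slc6a6, the taurine transporter, fell by 1.12, and Slc22a8, the organic anion transporter OAT3, by 1.11. Slc19a3, a thiamine transporter, fell by 1.1. Slco1c1, a thyroid hormone carrier, read 9394, 8718 and 8263 in sham and 3983, 6872 and 4282 in untreated tumour. The large neutral amino acid transporter Slc7a5 fell by 0.71. Slco2b1, an organic anion carrier, was the member that rose, with scores of 2364, 2473 and 2443 in sham and 2870, 3665 and 3171 in untreated tumour (log2 fold change 0.41, SE 0.11, limma adjusted p = 0.00503).

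Wnt/beta-catenin genes were lower too: 15 of 20 fell and none rose, with a median of -0.53 and 10 to 12 fallen under the other scalings. All 20 had a negative log2 fold change (19 with endothelial centring or equal sums), and 16 were lower at an unadjusted p below 0.05. Ctnnb1, beta-catenin itself, had scores of 10295, 9475 and 9388 in sham and 4535, 6816 and 5514 in untreated tumour. Lef1, the transcription factor it binds, read 1281, 1496 and 1337 in sham and 657, 954 and 782 in untreated tumour. Both genes had every untreated tumour library below every sham library (-0.81 and -0.79 on the log2 scale). The receptor Fzd4 fell by 0.85 and Reck, its partner in sensing Wnt7 ligands, by 0.94. Feedback targets moved the same way: Axin2 by -0.73, Nkd1 by -1.01, Notum by -1.36 and Tnfrsf19 by -0.83.

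**Figure D3:**
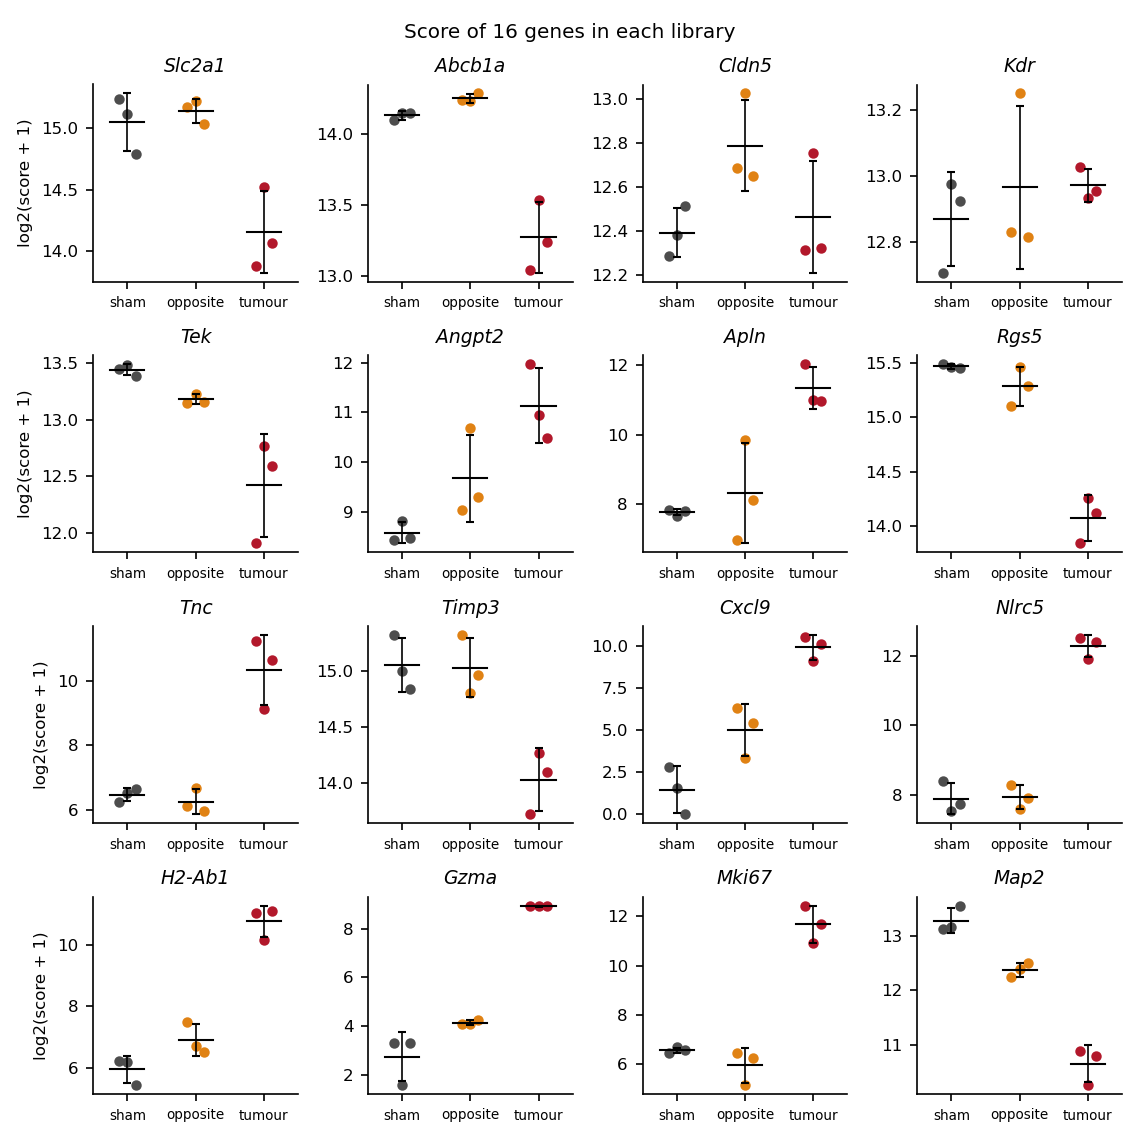
Log2(score + 1) of 16 genes (vertical axes, each with its own range) in the 3 sham, 3 opposite-hemisphere and 3 untreated tumour libraries. Points are libraries, and bars show the mean and the SD over 3 libraries. The untreated tumour libraries lie below sham for Slc2a1, Abcb1a, Tek, Rgs5, Timp3 and Map2, overlap with it for Cldn5 and Kdr, and lie above it for the other 8 genes.

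Ligands and receptors of the VEGF and angiopoietin systems split. Angpt2 (ENSMUSG00000031465, chromosome 8, 18690263 to 18741562 on the minus strand), the ligand that antagonises TEK in remodelling vessels, had scores of 348, 454 and 355 in sham and 4009, 1971 and 1444 in untreated tumour. The opposite hemisphere read 524, 1641 and 634, so that its highest library lay between the lower untreated tumour libraries. Angpt2 rose by 2.55 (SE 0.34, limma adjusted p = 7.2e-06). Angpt1, the stabilising ligand of the same receptor, read 499, 515 and 478 in sham and 140, 291 and 312 in untreated tumour. It fell by 1.09, or by 0.72 without untreated tumour replicate 1. Tek, their receptor TIE2, read 11181, 11463 and 10720 in sham and 3835, 6950 and 6180 in untreated tumour and fell by 1.02. Vegfa had scores of 255, 218 and 340 in sham and 607, 432 and 386 in untreated tumour (log2 fold change 0.80, SE 0.21, limma adjusted p = 0.00417). Its receptor Kdr read 6687, 8061 and 7780 in sham and 8352, 7819 and 7943 in untreated tumour and was not called (0.10, limma adjusted p = 0.587, and a called rise of 0.43 with quantile normalisation), while the decoy-like receptor Flt1 fell by 0.63. Vegfc, the lymphangiogenic ligand, fell by 1.06, and by 0.68 without untreated tumour replicate 1. Across the list 2 of 15 genes rose and 6 fell, with a median of -0.17, or -0.06 without untreated tumour replicate 1. With quantile normalisation 5 rose and 4 fell (median 0.05), with equal sums 5 rose and 5 fell (median 0.02), and with endothelial centring 2 rose and 5 fell.

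Genes of angiogenic and tip-like endothelium rose in most cases. Of 25, 17 rose, 1 fell and 7 were not called (median 0.92). Apln (ENSMUSG00000037010, chromosome X, 48025146 to 48034853 on the minus strand), the tip cell ligand apelin, read 227, 201 and 220 in sham and 4192, 2061 and 2026 in untreated tumour, and the opposite hemisphere 124, 914 and 274. Aplnr, its receptor, read 62, 67 and 39 in sham and 628, 460 and 674 in untreated tumour. These receptor values rose by 3.39 (SE 0.37, limma adjusted p = 6.45e-07), and both genes were above sham in every untreated tumour library. Cxcr4, the receptor of CXCL12, rose by 3.22, with scores of 27, 24 and 35 in sham and 293, 241 and 287 in untreated tumour. Its ligand Cxcl12 went the other way, at 14305, 13024 and 14645 in sham and 4898, 6688 and 4967 in untreated tumour (-1.36). Cd276, the checkpoint molecule B7-H3 that also marks tumour endothelium, rose by 2.49, and Mcam, the adhesion molecule CD146, by 1.05. The peptide hormone adrenomedullin, Adm, rose by 2.27, and Dll4, the Notch ligand of tip cells, by 0.81. Unc5b, a netrin receptor of vessels, was the 1 member that fell, by 0.52, a call lost without sham replicate 1, sham replicate 3 or untreated tumour replicate 1, so that no fallen member remained, and also under the other scalings.

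Arterial genes were lower and venous genes mixed. Of 12 arterial genes 9 fell and none rose (median -0.97, and -0.57 without untreated tumour replicate 1). Alpl, the alkaline phosphatase of arterioles, had scores of 3105, 2743 and 2828 in sham and 517, 1164 and 1206 in untreated tumour. It fell by 1.68 (SE 0.24, limma adjusted p = 1.47e-05). Gkn3, a marker of brain arteriolar endothelium, fell by 1.44, and the Notch target Hey1 by 1.22. Of 10 venous genes 4 rose and 2 fell, and 1 fell without sham replicate 2, without untreated tumour replicate 1 or under the other scalings, where 5 rose. Ackr1, the Duffy chemokine receptor of venules, read 31, 39 and 16 in sham and 624, 474 and 539 in untreated tumour. No untreated tumour library came near the sham range (log2 fold change 4.28, SE 0.46, limma adjusted p = 4.75e-07), and the opposite hemisphere read 83, 87 and 47. Summed arterial scores were 7800, 16604 and 14848 in untreated tumour against 20600 to 23878 in sham, and summed venous scores 26208, 36745 and 39756 against 29960 to 36345.

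In the Notch pathway 9 of 16 genes tested fell and Dll4 alone rose. Notch3, the receptor of mural cells, fell by 0.95, the endothelial receptor Notch1 by 0.55, and Lfng, the glycosyltransferase that tunes Notch to its ligands, by 1.11. Jag2, a ligand, fell by 0.88, or by 0.58 without untreated tumour replicate 1. In the TGF-beta and BMP pathway 12 of 25 fell and 5 rose (median -0.32). With endothelial centring 8 fell and 5 rose, and with equal sums 8 fell and 7 rose (median -0.13). Bmpr2, the type II BMP receptor, read 17612, 15722 and 15494 in sham and 9731, 11239 and 11281 in untreated tumour. Smad7, the inhibitory SMAD, fell by 0.84, the BMP target Id1 by 0.85 and the latent TGF-beta binding protein Ltbp1 by 1.12. Smad1, a BMP signal transducer, rose by 0.98, and the ligand Bmp4 by 1.12.

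Leukocyte adhesion genes moved in both directions, with 6 of 12 risen and 4 fallen. Selp, the P-selectin that starts leukocyte rolling, had scores of 3, 0 and 6 in sham and 254, 104 and 167 in untreated tumour. Sele, E-selectin, read 0, 9 and 3 in sham and 68, 21 and 57 in untreated tumour. Both selectins were above sham in all untreated tumour libraries (5.76 and 3.7 on the log2 scale). Icam1, the integrin ligand for firm adhesion, read 261, 398 and 388 in sham and 771, 792 and 850 in untreated tumour and rose by 1.23. Vcam1, its counterpart for VLA-4, read 3884, 4198 and 3392 in sham and 3204, 4005 and 4950 in untreated tumour. Those values overlapped (0.07, limma adjusted p = 0.798), and the sign was negative without sham replicate 3 or without untreated tumour replicate 3 (-0.02 and -0.09). Alcam, the adhesion molecule CD166, fell by 1.22.

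Haemostasis genes gave 4 risen and 3 fallen of 16, and 7 risen without untreated tumour replicate 2. The first 2 counts are near the 23.3% of all genes called in each direction, so they do not set this list apart. With quantile normalisation 7 rose and 3 fell, with equal sums 9 and 2, and with endothelial centring 6 and 2. Plaur, the urokinase receptor, read 97, 162 and 124 in sham and 422, 786 and 376 in untreated tumour and rose by 1.99. Procr, the endothelial protein C receptor, rose by 1.46. Thbd, thrombomodulin, fell by 0.79, and Gas6, a vitamin K-dependent ligand of TAM receptors, by 0.98.

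Mural cell genes were lower. Of 14 pericyte genes 11 fell and none rose (median -0.80). Rgs5 (ENSMUSG00000026678, chromosome 1, 169655501 to 169695813 on the plus strand), the regulator of G-protein signalling that marks brain pericytes, had scores of 46033, 45162 and 44910 in sham and 14627, 19529 and 17800 in untreated tumour. It fell by 1.4 (SE 0.15, limma adjusted p = 5.42e-07). Pdgfrb, the receptor that recruits pericytes, read 2700, 3282 and 3006 in sham and 1585, 1604 and 1845 in untreated tumour. Vtn, the pericyte product vitronectin, fell by 1.11 and Cspg4, the proteoglycan NG2, by 0.60. Summed pericyte scores ran from 66199 to 67288 in sham and from 26228 to 30807 in untreated tumour. Among 13 smooth muscle genes 8 fell and 1 rose (median -0.92, and -0.51 without untreated tumour replicate 1). Acta2, smooth muscle actin, read 12355, 13534 and 11897 in sham and 3043, 8117 and 8263 in untreated tumour. Untreated tumour replicate 1 was the lowest library, and the fall of 1.09 became 0.62 without it. The contractile genes Myh11, Myl9 and Mylk fell by 1.42, 1.28 and 1.13. Actg2, an actin of visceral smooth muscle, rose by 2.02, with scores of 17, 11 and 8 in sham and 53, 38 and 61 in untreated tumour.

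Fibroblast genes fell, apart from the fibrillar collagens. Of 13 tested, 9 fell and 2 rose (median -1.31). Col3a1, type III collagen, had scores of 724, 826 and 682 in sham and 2226, 1947 and 1758 in untreated tumour, and Col1a1, type I collagen, 989, 1208 and 980 in sham and 1911, 1438 and 2403 in untreated tumour. These rises of 1.41 and 0.83 stood beside falls of 1.41 for the collagen-binding proteoglycan lumican (Lum), 1.47 for the receptor Pdgfra and 2.17 for fibromodulin (Fmod). Igf2, a growth factor made by vascular and meningeal fibroblasts, read 10343, 9667 and 9565 in sham and 3489, 4446 and 3882 in untreated tumour. It fell by 1.33 with no overlap, in contrast to H19, which lies beside it in the same imprinted region.

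Basement membrane genes rose and fell in equal number. Of 18 tested, 8 rose and 8 fell (median -0.19, but 0.07 with quantile normalisation and 0.01 with equal sums). Col4a1, a chain of the ubiquitous type IV collagen, read 10770, 11883 and 9635 in sham and 21370, 18187 and 18752 in untreated tumour. Col4a5 and Col4a6, the minor type IV chains, fell by 1.32 and 1.48. Among laminins, Lamb1 rose by 1.37 and Lama4, a chain of endothelial laminin, by 0.93. Lama2, the chain made by astrocytes and mural cells, read 2080, 2361 and 2302 in sham and 965, 813 and 805 in untreated tumour. It fell by 1.39 (limma adjusted p = 9.13e-08), Lamb2 by 0.95 and Lamc3 by 1.5. Hspg2, the proteoglycan perlecan, rose by 0.63.

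The interstitial matrix and its proteases rose: 17 of 25 genes tested rose and 3 fell (median 2.16). Of the 25, 2 were at 0 in all sham libraries, so no fall could be seen for them. Tnc (ENSMUSG00000028364, chromosome 4, 63959785 to 64047015 on the minus strand), tenascin-C, a matrix glycoprotein of glioma vessels, had scores of 75, 91 and 99 in sham and 2395, 563 and 1613 in untreated tumour. The lowest untreated tumour library was above 500 and the highest sham library below 100 (log2 fold change 3.87, SE 0.38, limma adjusted p = 1.97e-07). Vcan, versican, rose by 2.55, and Cd44, the hyaluronan receptor, by 3.89. Fn1, fibronectin, read 32193, 36632 and 31966 in sham and 65800, 39482 and 47896 in untreated tumour and rose by 0.57, a call lost when the 6 libraries were fitted alone with a replicate term. Thbs1, thrombospondin-1, an inhibitor of angiogenesis, rose by 2.33.

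Metalloproteinases and their inhibitors diverged. Mmp3 and Mmp10, the stromelysins, were listed at 0 in all sham libraries and read 357, 1028 and 148 and 148, 50 and 114 in untreated tumour. For Mmp3 the opposite hemisphere read 28, 511 and 4. Mmp13, a collagenase, read 6, 0 and 4 in sham and 551, 541 and 279 in untreated tumour, and Mmp14, the membrane-bound activator of Mmp2, 466, 534 and 478 in sham and 2387, 1960 and 2303 in untreated tumour. Mmp14 and Mmp2 rose by 2.16 and 2.49. Timp1, an inducible inhibitor, rose by 4.22. Timp3, the matrix-bound inhibitor, read 40758, 32764 and 29260 in sham and 13548, 19728 and 17586 in untreated tumour. It fell by 1.02 and Timp2 by 0.94, with no overlap between the groups for either.

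Proliferation genes gave the highest list median. Of 24 mitosis genes 24 rose (median 4.88), and 24 of 25 replication genes tested rose (median 2.17). Mki67 (ENSMUSG00000031004, chromosome 7, 135689784 to 135716361 on the minus strand), the proliferation antigen Ki-67, had scores of 88, 102 and 94 in sham and 5465, 1933 and 3323 in untreated tumour. The opposite hemisphere stayed at 88, 35 and 75. Mki67 rose by 5.1 (SE 0.33, limma adjusted p = 2.72e-09), and untreated tumour replicate 1 was the highest library. Top2a, the topoisomerase that untangles chromosomes, read 58, 58 and 35 in sham and 4153, 1999 and 2791 in untreated tumour. Cdk1, the mitotic kinase, rose by 5.51, the spindle protein Tpx2 by 4.76, the kinesin Cenpe by 5.24 and survivin, encoded by Birc5, by 5.82. In replication, Pole, a subunit of the leading strand polymerase, rose by 4.63, the ribonucleotide reductase subunit Rrm2 by 5.33, the maintenance methylation factor Uhrf1 by 4.22, and the helicase subunits Mcm2, Mcm3 and Mcm5 by 1.92, 1.91 and 2.85. Gins4 was the replication gene not called (0.38, limma adjusted p = 0.0744), although it was called without untreated tumour replicate 3 (0.48). Of 18 clustered histone genes 14 passed the filter, and 11 of those rose, 1 of them from 0 in all sham libraries. Hist1h1a, a linker histone of the S phase, read 6, 2 and 12 in sham and 328, 141 and 200 in untreated tumour.

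As examples, the 120 bases before the first listed start of 3 mitosis genes that hold both elements named below follow. They are from RefSeq on GRCm38.p6, 5′ to 3′ in the gene's direction. Capitals mark the cell cycle genes homology region (TTTGAA, the element bound by the DREAM complex) and the CCAAT box (CCAAT, bound by NF-Y), on either strand. They were Cdk1 on chr10:69352913-69353032, Top2a on chr11:99024190-99024309 and Cdc20 on chr4:118437344-118437463, all on the minus strand.
Cdk1: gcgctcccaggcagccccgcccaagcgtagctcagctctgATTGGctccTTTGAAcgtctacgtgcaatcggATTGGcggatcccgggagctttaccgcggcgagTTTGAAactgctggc
Top2a: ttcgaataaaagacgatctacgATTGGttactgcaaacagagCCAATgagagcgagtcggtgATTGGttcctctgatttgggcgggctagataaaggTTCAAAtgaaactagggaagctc
Cdc20: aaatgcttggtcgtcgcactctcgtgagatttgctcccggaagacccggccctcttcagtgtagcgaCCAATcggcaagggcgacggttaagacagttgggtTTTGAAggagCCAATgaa
In Cdk1 the TTTGAA letters started 71 and 15 bases before the start, in Top2a 23 and in Cdc20 18. In the full window of 300 bases (250 before to 50 after the start), 15 of 21 mitosis genes with a promoter in the table held TTTGAA (71.4%), against 12.2% of 12301 tested genes. CCAAT was present in 71.4% of the mitosis genes and 38% of all. It was not particular to mitosis: the replication list held it in 66.7%, the MHC class I list in 70.6% and the MHC class II list in 75%. The E2F letters TTTGGCGC were found in 23.8% of the replication genes and 0.919% of all. A match is a description of letters, not evidence of binding.

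Among p53 targets 5 of 14 rose and 3 fell, and 3 rose without sham replicate 1, sham replicate 3 or untreated tumour replicate 1. Beside the 23.3% of all genes called in each direction, these counts in a short list are not read as a result about p53. Cdkn1a, the cell cycle inhibitor p21, read 1534, 1491 and 1215 in sham and 635, 894 and 656 in untreated tumour and fell by 0.97. Trp53 itself rose by 1.0, and its antagonist Mdm2 by 0.39.

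Interferon-responsive genes rose almost without exception. Of 26 type I interferon response genes 25 rose (median 1.38), and of 23 interferon-gamma GTPases and regulators 23 rose (median 2.62). Nlrc5 (ENSMUSG00000074151, chromosome 8, 94434391 to 94527272 on the plus strand), the transactivator of MHC class I, had scores of 336, 184 and 211 in sham and 5955, 3900 and 5434 in untreated tumour. The opposite hemisphere read 309, 190 and 240, inside the sham range. Nlrc5 rose by 4.41 (SE 0.28, limma adjusted p = 2.14e-09). Irgm1, an immunity-related GTPase that protects against intracellular pathogens, read 846, 672 and 739 in sham and 6050, 3501 and 4644 in untreated tumour. Its relatives Igtp and Iigp1 rose by 2.39 and 2.96, the guanylate binding proteins Gbp2 and Gbp10 by 1.87 and 5.77, and the nucleic acid sensor Zbp1 by 4.34. Ubd, the ubiquitin-like modifier FAT10, was listed at 0 in all sham libraries and at 798, 210 and 379 in untreated tumour. The transcription factors Stat2, Irf1 and Irf7 rose by 1.87, 1.67 and 1.62. Isg15, the ubiquitin-like type I product, read 73, 99 and 74 in sham and 224, 277 and 238 in untreated tumour. Ifit2 rose by 1.61, and Oas3, the oligoadenylate synthetase, by 5.73. Cmpk2, a mitochondrial nucleotide kinase, was the type I gene not called, at 627, 579 and 532 in sham and 696, 680 and 677 in untreated tumour. It was called with quantile normalisation (0.36) and with equal sums (0.44).

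Promoters of 4 of these genes that hold the element marked below are shown over the 120 bases before the first listed start, from RefSeq on GRCm38.p6. Capitals mark the core of the interferon-stimulated response element, searched as GAAANNGAAA on both strands, with overlapping matches allowed. Irgm1 lies on chr11:48871421-48871540 (minus strand), Igtp on chr11:58199436-58199555 (plus), Gbp2 on chr3:142620543-142620662 (plus) and Isg15 on chr4:156200819-156200938 (minus).
Irgm1: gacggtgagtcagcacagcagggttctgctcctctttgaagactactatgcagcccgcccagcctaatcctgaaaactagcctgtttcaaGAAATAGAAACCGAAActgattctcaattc
Igtp: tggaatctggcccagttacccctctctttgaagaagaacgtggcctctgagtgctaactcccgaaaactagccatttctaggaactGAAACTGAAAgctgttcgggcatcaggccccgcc
Gbp2: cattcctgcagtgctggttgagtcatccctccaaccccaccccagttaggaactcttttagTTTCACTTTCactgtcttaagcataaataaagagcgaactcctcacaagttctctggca
Isg15: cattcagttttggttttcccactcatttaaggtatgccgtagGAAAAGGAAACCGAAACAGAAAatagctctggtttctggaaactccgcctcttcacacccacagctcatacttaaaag
Matches started 30 and 24 bases before the start in Irgm1, 34 in Igtp, 59 in Gbp2 (on the opposite strand) and 78, 72 and 66 in Isg15. In the 300-base windows, 11 of 19 type I response genes (57.9%) and 10 of 13 interferon-gamma genes (76.9%) held this core, against 3.26% of all tested genes, 5.84% of risen and 2.12% of fallen genes. The gamma-activated site, TTCNNNGAA, was found in 61.5% of the interferon-gamma list and 6.99% of all. No match says only that these letters were not in the window.

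Antigen presentation rose on both arms. In the class I list 20 of 21 rose (median 1.16). B2m, the invariant light chain, had scores of 10632, 9868 and 8118 in sham and 19343, 15653 and 19060 in untreated tumour. H2-K1 and H2-D1, the classical heavy chains, rose by 1.71 and 1.09. Reads of these near-identical heavy chain genes may be split between copies. Tap1, the peptide transporter, read 406, 339 and 329 in sham and 2937, 1749 and 2724 in untreated tumour, and the immunoproteasome subunit Psmb8 rose by 1.79. Of 11 class II genes 9 rose (median 3.70, 3.39 without untreated tumour replicate 1 and 4.14 without replicate 2). H2-Ab1, a class II beta chain, read 74, 73 and 43 in sham and 2060, 1141 and 2147 in untreated tumour, and Cd74, the invariant chain, 90, 78 and 54 in sham and 2805, 1313 and 2934 in untreated tumour. Ciita, the class II transactivator, rose by 3.54, and Ctss, the protease that trims the invariant chain, by 3.3.

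Among chemokines, the ligands of CXCR3 rose the most. Of 22 chemokine genes tested 15 rose and 3 fell. Cxcl9 (ENSMUSG00000029417, chromosome 5, 92321347 to 92328079 on the minus strand) had scores of 6, 2 and 0 in sham and 1516, 554 and 1121 in untreated tumour and Cxcl10 of 9, 2 and 1 in sham and 1107, 496 and 943 in untreated tumour. In the opposite hemisphere Cxcl9 read 80, 9 and 42 and Cxcl10 43, 27 and 34. The rises were 8.47 (SE 0.73) and 7.68 (SE 0.53), with limma adjusted p values of 4.48e-08 and 4.75e-09. Ccl22, which attracts regulatory T cells, read 0, 0 and 1 in sham and 49, 125 and 130 in untreated tumour, and Ccl6, a myeloid product, rose by 4.27. The members that fell were Cxcl12, Cxcl14 (-2.06) and Cx3cl1, the neuronal and endothelial fractalkine (-1.48). Fewer cytokines passed the filter, 16 of 23, and 12 of those rose. Of the tested members, 4 cytokines and 1 chemokine were at 0 in all sham libraries, so no fall could be seen for them. The cytokine median of 2.92 became 1.68 with the filter of 10 set on the 6 libraries, and 0.61 with a filter of 50. Il1b read 4, 2 and 8 in sham and 186, 228 and 212 in untreated tumour and its antagonist Il1rn 1, 0 and 0 in sham and 187, 359 and 304 in untreated tumour. Il12b and Tnf were listed at 0 in all sham libraries and read 49, 65 and 74 and 16, 15 and 29. Il33, an alarmin of glia, fell by 0.78 (2 cytokines fell with quantile normalisation). In the complement system 11 of 17 rose: C3, the central component, read 33, 20 and 23 in sham and 1532, 790 and 2128 in untreated tumour, C4b rose by 2.92 and C1qa, made by microglia and macrophages, by 1.16. The fallen member was the complement inhibitor Cd59a (-0.59), and 2 members fell without untreated tumour replicate 2 or 3.

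Lymphocyte transcripts appeared at low scores. Of 25 T and NK cell markers 23 passed the filter, and 21 of those rose. Members that sham libraries lack can pass only through libraries of the other groups, among them untreated tumour. Cd3e, the T cell receptor subunit, read 1, 0 and 3 in sham and 122, 98 and 123 in untreated tumour. Gzma, granzyme A of cytotoxic cells, read 9, 2 and 9 in sham and 484, 484 and 493 in untreated tumour, and Klrk1, the NKG2D receptor, 7, 6 and 3 in sham and 157, 188 and 233 in untreated tumour. The lowest untreated tumour library of each exceeded every sham library. Cd8a read 2, 9 and 2 in sham and 39, 42 and 19 in untreated tumour, and Cd4, which myeloid cells also carry, rose by 1.56. Summed T and NK scores were 187 to 240 in sham, 219 to 329 in the opposite hemisphere and 1985 to 2413 in untreated tumour. Of 9 B and plasma cell genes tested 8 rose, such as Cd22 (2.74), and 4 rose with a filter of 50. Their median of 2.39 became 1.3 with a pseudocount of 10. For members near 0 in sham a fall could hardly be seen. Only 4 of 12 neutrophil genes passed the filter, among them S100a9 at 8, 2 and 1 in sham and 57, 86 and 31 in untreated tumour and Csf3r at 24, 17 and 20 in sham and 43, 75 and 76 in untreated tumour.

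Immune checkpoint genes rose as well. Of 17, 16 rose (median 2.82, and 2.05 with a pseudocount of 10). Members near 0 in sham, such as Ctla4 and Pdcd1, could hardly show a fall. Cd274, the PD-1 ligand PD-L1, had scores of 240, 166 and 164 in sham and 892, 662 and 892 in untreated tumour. It rose by 2.1 (SE 0.32, limma adjusted p = 2.77e-05) and read 206, 139 and 177 in the opposite hemisphere. Pdcd1, PD-1 itself, was near the floor of detection at 0, 0 and 2 in sham and 14, 22 and 52 in untreated tumour. Ctla4 read 0, 0 and 1 in sham and 61, 52 and 80 in untreated tumour, Tnfrsf9, the costimulatory receptor 4-1BB, 3, 0 and 0 in sham and 246, 187 and 148 in untreated tumour, and Havcr2, the receptor TIM-3, rose by 2.82. Lgals9, a ligand of TIM-3, rose by 0.89.

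Myeloid genes moved in both directions. Of 21 monocyte and macrophage genes tested 12 rose and 3 fell. Gpnmb (ENSMUSG00000029816, chromosome 6, 49036615 to 49070929 on the plus strand), a glycoprotein of lipid-laden and tumour macrophages, had scores of 13, 28 and 30 in sham and 3352, 1291 and 1691 in untreated tumour. Arg1, arginase-1 of alternatively activated macrophages, read 5, 6 and 3 in sham and 364, 290 and 299 in untreated tumour. Ccr2, the receptor of recruited monocytes, rose by 4.06, Itgax, the integrin CD11c, by 6.32 and the monocyte lysozyme Lyz2 by 1.92. Markers of resident perivascular macrophages were among those that fell. Mrc1, the mannose receptor, read 2160, 2330 and 2116 in sham and 1277, 948 and 1052 in untreated tumour, a fall of 1.02, and Cd163, the haemoglobin scavenger receptor, fell by 1.13. Of 11 homeostatic microglia genes 4 rose and 2 fell. In so short a list these counts are not read as a result, beside 23.3% of all genes called in each direction. Tmem119 rose by 1.08 and Cx3cr1 by 1.02, while Fcrls fell by 1.5. Of 20 cathepsin and lysosome genes 14 rose, a count of 8 without sham replicate 3 and 9 without untreated tumour replicate 1, with Ctss and the proton pump subunit Tcirg1 (1.6) among them.

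**Figure D4:**
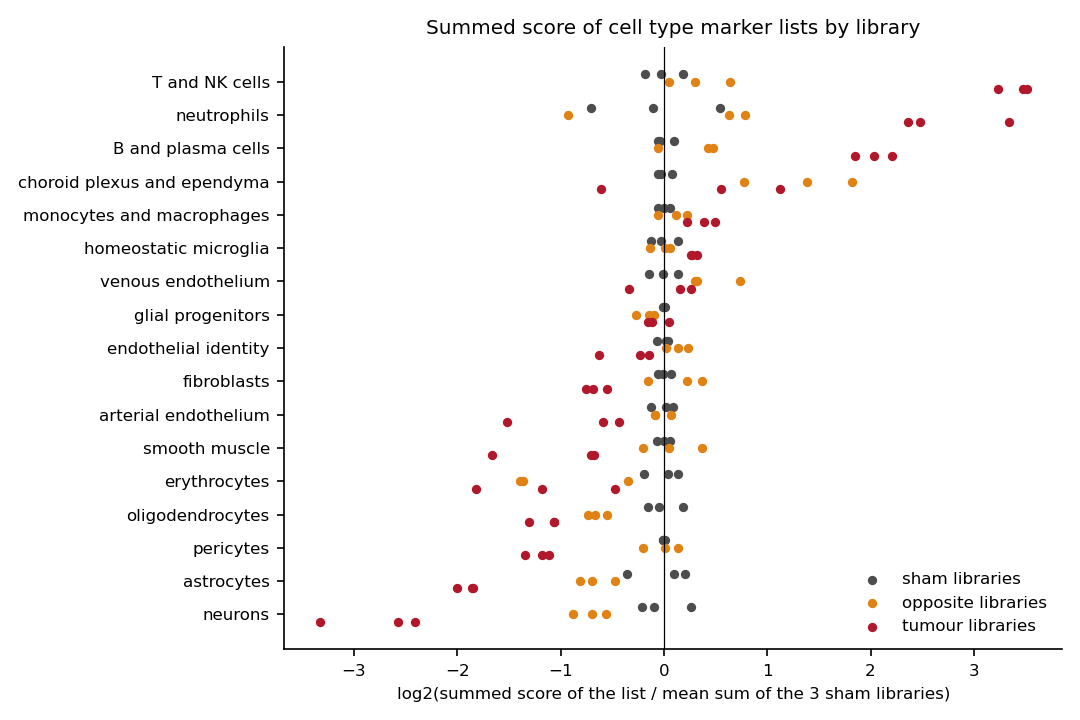
Summed score of each cell type marker list in each library, as log2 of its ratio to the mean sum of the 3 sham libraries (horizontal axis), for sham, opposite-hemisphere and untreated tumour libraries. Points are libraries. T and NK cell markers lie farthest to the right and neurons farthest to the left in untreated tumour, where neuron sums read 7660, 4044 and 6844 against 35083 to 48908 in sham.

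Neural cell transcripts fell. Of 15 neuron genes 15 fell (median -2.86), 11 of 13 oligodendrocyte genes fell (median -1.73, and -1.41 without untreated tumour replicate 2) and 9 of 13 astrocyte genes fell (median -1.58). Map2, a dendritic microtubule protein, had scores of 8968, 9178 and 12054 in sham and 1901, 1226 and 1781 in untreated tumour. The opposite hemisphere lay between, at 4845, 5405 and 5780. Gad1, which makes GABA, read 588, 687 and 854 in sham and 80, 42 and 50 in untreated tumour, and Camk2a, the synaptic kinase, fell by 2.93. Slc1a2 (ENSMUSG00000005089, chromosome 2, 102658659 to 102790784 on the plus strand), the astrocyte glutamate transporter, read 53916, 38050 and 59457 in sham and 9231, 9599 and 9936 in untreated tumour. It fell by 2.37 (SE 0.26, limma adjusted p = 8.37e-07), with 26970, 34276 and 29332 in the opposite hemisphere. Aqp4, the water channel of astrocyte endfeet, fell by 2.12, the bicarbonate transporter Slc4a4 by 2.36 and the receptor Fgfr3 fell by 1.72. Gfap, which reactive astrocytes raise, read 903, 903 and 1255 in sham and 1173, 1360 and 1619 in untreated tumour and was not called (0.44, limma adjusted p = 0.306), except when only the 6 libraries were fitted. Of myelin genes, Mbp fell by 1.89 (not called with robust empirical Bayes), the galactolipid enzyme Ugt8a fell by 2.35 and Cldn11 by 1.73. Summed astrocyte scores were 54373 to 80005 in sham and 17378 to 19305 in untreated tumour, and oligodendrocyte scores 28888 to 36501 against 13004 to 15375. The part of these neural transcripts in the lower scores of other genes was not tested.

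Glial progenitor markers rose and fell. Of 18 glial progenitor genes 5 rose and 8 fell. The risen count is near the 23.3% of all genes that rose, so it does not set this list apart. Olig2, a lineage transcription factor also high in glioma cells, read 71, 82 and 111 in sham and 931, 368 and 592 in untreated tumour, and Sox10 28, 61 and 59 in sham and 385, 215 and 218 in untreated tumour. Both rose without overlap (2.75 and 2.47), whereas Dcx, a marker of neuroblasts, fell by 2.06 and Egfr by 1.35. Immediate early genes gave 2 risen and 6 fallen of 16, and 4 risen and 5 fallen with equal sums. Arc, a synaptic activity gene, read 448, 711 and 848 in sham and 54, 69 and 70 in untreated tumour and fell by 3.32, while Fos rose by 1.28.

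Erythrocyte genes fell in 7 of 7 tested, but leaving out a library lowered the count to 3 (sham replicate 2), 4 (sham replicate 3) or 2 (untreated tumour replicate 1). Hbb-bt, a beta-globin gene, read 172, 255 and 182 in sham and 56, 95 and 78 in untreated tumour, and the opposite hemisphere read 74, 163 and 45. The erythrocyte median was -1.32 against sham (-0.87 without untreated tumour replicate 1) but -0.15 against the opposite hemisphere, where no member was called. The opposite hemisphere against sham had a median of -1.06. There Hba-a2, Hbb-bs, Hbb-bt and Alas2 were not called (limma adjusted p from 0.158 to 0.295). By these medians the lower level is not shown to be particular to tumour vessels. Choroid plexus and ependyma genes gave 1 risen and 1 fallen of 10 tested, both below the 23.3% of all genes called in each direction. Their risen count was 0 without sham replicate 2 or untreated tumour replicate 2 and 3 without untreated tumour replicate 3, with 2 risen for endothelial centring or equal sums, and their summed scores of 35572, 52689 and 15887 in untreated tumour enclosed the sham range of 23332 to 25590.

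Metabolic genes moved in smaller steps. Of 47 cytosolic ribosomal protein genes tested 42 rose and none fell (median 0.66). Rplp0, a subunit of the ribosomal stalk, had scores of 1611, 1537 and 1417 in sham and 4917, 4348 and 3242 in untreated tumour. Rpl12 rose by 1.45 and Rpsa, the laminin receptor protein of the small subunit, by 0.85. Of 9 mitochondrial genome transcripts tested 9 rose, and 6 rose with quantile normalisation. Without untreated tumour replicate 2 the median of 1.20 became 0.84. Mt-Nd4, a subunit of complex I (mt-Nd4 in the table), read 5913, 6945 and 8139 in sham and 15816, 24205 and 10611 in untreated tumour. Nuclear genes of oxidative phosphorylation were mostly not called: 2 of 20 rose and 3 fell. The balance turned under the other scalings, with 8 risen and 2 fallen for equal sums, 4 and 3 for quantile normalisation and 3 and 1 for endothelial centring. Without a sham library 1 rose, without untreated tumour replicate 1 none, and without untreated tumour replicate 2 the fallen count was 5. Sdha, a subunit of complex II, fell by 0.67.

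Of 22 hypoxia and glycolysis genes 8 rose and 4 fell, and 12 rose and 3 fell with equal sums. Car9, the carbonic anhydrase induced by HIF, read 9, 4 and 6 in sham and 64, 65 and 33 in untreated tumour, and Hk2, the inducible hexokinase, 36, 28 and 37 in sham and 335, 180 and 295 in untreated tumour. Ndrg1, another hypoxia-induced gene, went the other way, with scores of 9011, 8128 and 7373 in sham and 2319, 4114 and 3096 in untreated tumour (log2 fold change -1.4, SE 0.16, limma adjusted p = 9.16e-07). Cholesterol synthesis genes and SREBP2 targets gave 7 fallen and 1 risen of 22, and the risen member was lost without sham replicate 3 or untreated tumour replicate 1. The balance turned with equal sums, where 3 fell and 4 rose, while 3 fell and 1 rose with endothelial centring and 5 fell and 1 rose with quantile normalisation. Hmgcs1, which forms HMG-CoA, fell by 0.76. In the unfolded protein response 7 of 13 rose and 1 fell. The chaperone Hspa5 read 7753, 8082 and 7317 in sham and 12532, 11141 and 9894 in untreated tumour, the transcription factor Xbp1 rose by 0.91 and the disulfide isomerase Pdia4 by 0.60.

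Set against the opposite hemisphere, the counts were similar in size. Untreated tumour against opposite-hemisphere microvessels gave 4147 risen genes (21.1%) and 4207 fallen genes (21.4%), and opposite hemisphere against sham gave 50 risen (0.254%) and 35 fallen (0.178%). These comparisons share libraries with the one above and are given only side by side. They were fitted without pairing, and whether tumour and opposite-hemisphere libraries of the same number came from the same mice was not examined. List medians against the opposite hemisphere were 4.75 for mitosis, 2.62 for interferon-gamma genes, -0.73 for barrier transporters and -0.94 for pericytes. The corresponding medians of the opposite hemisphere against sham were -0.25, 0.03, 0.07 and 0.18. Neuron, oligodendrocyte and erythrocyte genes had medians of -0.54, -0.78 and -1.06 in the opposite hemisphere against sham. Some genes that rose in the tumour were among the 50 risen there too. Examples are Tnfsf8 (log2 fold change 4.09), Ubd (3.45), Tnfrsf9 (3.29), Ccl6 (1.59) and Cxcr4 (1.42). Lfng was among the 35 fallen (-0.69).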

How the data were processed

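Total RNA of isolated brain microvessels was prepared with DNase digestion on the column and a stranded total RNA kit, per the labels' protocols. Per the submitters' processing notes, tools included STAR 2.4.0a, featureCounts 1.4.5-p1 and DESeq2 with the GRCm38 build. The deposited table holds a normalised score per gene and library as whole numbers. The authors' scores behave as reads multiplied by a factor per library and rounded, so no count model was used. Scores were transformed to log2(score + 1), on which changes of low genes are understated. All 15 libraries, in 5 groups of 3, were fitted together with limma's trend on mean score (limma 3.58.1 in R 4.3.3), 10 residual and 8.26 prior degrees of freedom, and p-values were adjusted over 19668 genes. The procedure was tested on simulated data.

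The comparison, the 48 gene lists and the motifs were chosen with earlier results of these data known. Lists are described by counts and medians without a set test. Genes were named by a fixed rule: up to 15 per direction with the largest log2 change (mean score at least 200, no overlap), up to 15 with the largest change in score, up to 4 list members with the smallest adjusted p, and a fixed set of vascular and immune genes. Genes outside this rule were chosen after their values were seen: Actg2, Adm, Alcam, Apln, Aqp4, Axin2, Birc5, Bmp4, Cd163, Cd4, Cd59a, Cdk1, Ciita, Cmpk2, Col1a1, Cspg4, Cx3cl1, Cxcl12, Cxcl14, Dcx, Dll4, Fmod, Fos, Fzd4, Gbp10, Gbp2, Gins4, H2-D1, H2-K1, Hspg2, Id1, Igtp, Iigp1, Il33, Irf1, Isg15, Lama4, Lamb1, Lamb2, Lgals9, Lyz2, Mbp, Mcm5, Mdm2, Mmp10, Mmp2, Mrc1, Notch1, Notum, Pdgfra, Plaur, Psmb8, Reck, Rrm2, Sele, Slc7a5, Slco1c1, Slco2b1, Thbd, Thbs1, Timp1, Timp2, Tjp1, Unc5b, Vcam1. Cdc20 (for its promoter), F11r and Adamts1 were chosen in the same way. Some genes that the rule or the lists hold are not reported here. Promoters came from RefSeq (GRCm38.p6), which matched 12301 of 19659 tested symbols, with the first listed start per gene. Of 876 list entries, 13 had no row in the table and 30 were below the filter. Alternatives changed the pseudocount, filter, scaling, fit and libraries, 21 settings in all.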

Additional observations from a re-analysis of the deposited data

How the results depend on the processing

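Both counts kept within 1.5 times of their values of 4577 risen and 4590 fallen genes under all 21 settings. Without 1 library the risen count ran from 3848 to 4543 and the fallen count from 3996 to 4565. Of 235 genes named with values, 223 kept direction and call under every setting in which they were tested. Those whose sign turned were all uncalled. Cdh5 (-0.07) was 0.25 with quantile normalisation, 0.08 with endothelial centring and 0.13 with equal sums. Cldn5 (0.07) was -0.01 with array quality weights and ran from -0.08 (without untreated tumour replicate 2) to 0.15 (without untreated tumour replicate 1) when 1 library was left out. Vcam1 (0.07) was -0.02 without sham replicate 3 and ran from -0.09 to 0.22 when an untreated tumour library was left out. The cause was not tested. A filter of 50 instead of 10 kept 13594 genes and left fewer lymphocyte and cytokine members, 11 risen T and NK genes and 6 risen cytokines. With a pseudocount of 10 the mitosis median was 3.66 and the T and NK median 2.04.

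Replicate numbers are shared between groups, but untreated tumour and sham libraries with the same number did not deviate together: the correlations were 0.002, 0.025 and -0.019. Other pairs of groups were not examined in this way. With a replicate block 4540 genes rose and 4576 fell, and 4058 and 4047 with the block in only the 6 libraries.

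Scores are not reads, and the depth limits of single genes are known only through an estimate. By that estimate 1 read stood for 0.809 score units in sham replicate 1 and 1.861 in sham replicate 2, the lowest and highest of the 6 libraries. Genes listed at 0 have no fold, and with 3 pools per group a change missed here is not shown to be absent.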

Other observations

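In the opposite hemisphere, 1 of 3 libraries, replicate 2, stood above the other two for several genes that rose in untreated tumour vessels. These genes were chosen after their values were seen. There Thbs1 read 3056 against 937 and 544, Adamts1 14009 against 3825 and 3100, Plaur 1106 against 173 and 113, Mmp3 511 against 28 and 4, and Apln 914 against 124 and 274. Cxcl9 did not follow, at 9 in replicate 2 against 80 and 42. No cause was tested, and side-by-side values of these genes from that group depend on this library.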
